A study of Homo sapiens with 12 samples.

Results

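Autophagy core genes were followed through the knockdown of 2 families of stress-activated kinases in human Müller glia cells. The 10 genes were chosen by name: MAP1LC3B, GABARAP, GABARAPL1 and GABARAPL2, which encode ATG8 proteins, and ULK1, BECN1, WIPI1, ATG9A, ATG5 and ATG7. All 10 were listed in both deposited count tables, among 17992 genes listed in at least 1 of them, and all 10 passed the filter on low counts in each comparison. Messenger RNA was sequenced from MIO-M1, a single human cell line labelled as wild type and derived from Müller glia, which span the retina and support its neurons. In siMapk14, small interfering RNA (siRNA) was directed at MAPK14, the gene of the kinase p38-alpha, and was set against siControl for siMapk14, a control siRNA. In siMapk8+9, siRNAs were directed at MAPK8 and MAPK9, which encode the kinases JNK1 and JNK2, and were set against siControl for siMapk8+9. Each of the 4 groups held 3 libraries, all labelled day 3, and the 2 experiments carried different batch labels. The stated purpose was to find downstream signalling genes that change after loss of these kinases. Whether replicate libraries stem from different cultures is not stated, so p-values measure only their spread, which may be technical. In RNA from whole cultures, fewer cells of a type and less RNA per cell cannot be told apart.

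In autophagy a cup-shaped membrane grows around cytoplasm, closes, and is delivered to the lysosome, where its content is broken down. The ULK1 kinase starts the process, the BECN1-containing lipid kinase complex marks the growing membrane with phosphatidylinositol 3-phosphate, WIPI1 binds that lipid, and ATG9A vesicles bring membrane. ATG7 activates the ATG8 proteins and ATG12, ATG5 carries the ATG12 conjugate, and the LC3 and GABARAP proteins are then coupled to the membrane, where cargo receptors bind them. JNK1 is known to phosphorylate BCL2 and thereby free Beclin 1, the BECN1 product, during starvation, and p38-alpha is known to phosphorylate autophagy proteins. These steps act on proteins, which were not measured here.

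MAP1LC3B and GABARAPL1 rose in both knockdowns with the length trend removed, as did GABARAP and ATG5. The rises of GABARAPL1 and WIPI1 differed between the knockdowns, as did the effects on ATG7. From these genes the ATG8 genes MAP1LC3B and GABARAPL1 and WIPI1 were selected, and their promoter sequences are shown. They are the 250 bases before the annotated start in RefSeq (GRCh38.p14), 5′ to 3′ on the gene's strand, and capitals mark matches on either strand to TGACGTCA (the cyclic AMP response element, CRE) or GGGCGG (the GC box).
MAP1LC3B (chr16:87392086-87392335, plus strand): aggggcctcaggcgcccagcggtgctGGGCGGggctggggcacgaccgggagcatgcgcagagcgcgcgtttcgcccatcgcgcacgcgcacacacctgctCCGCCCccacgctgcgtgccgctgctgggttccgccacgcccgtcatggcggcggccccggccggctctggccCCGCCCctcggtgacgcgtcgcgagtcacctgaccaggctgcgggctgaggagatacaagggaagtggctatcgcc
GABARAPL1 (chr12:10212627-10212876, plus strand): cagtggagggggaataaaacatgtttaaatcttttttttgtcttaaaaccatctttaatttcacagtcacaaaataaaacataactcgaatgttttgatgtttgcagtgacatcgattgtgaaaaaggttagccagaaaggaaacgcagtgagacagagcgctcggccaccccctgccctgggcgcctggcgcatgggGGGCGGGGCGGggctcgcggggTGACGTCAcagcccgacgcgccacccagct
WIPI1 (chr17:68457497-68457746, minus strand): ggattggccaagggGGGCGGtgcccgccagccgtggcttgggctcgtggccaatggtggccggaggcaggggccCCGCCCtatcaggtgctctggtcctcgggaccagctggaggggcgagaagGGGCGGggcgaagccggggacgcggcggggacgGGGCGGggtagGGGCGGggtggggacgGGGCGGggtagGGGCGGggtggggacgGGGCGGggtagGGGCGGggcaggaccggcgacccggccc
The WIPI1 window held 9 GC boxes, the highest number among the members, and the GABARAPL1 window held 1 CRE, 30 bases before the start, and 2 GC boxes that share a base. All 10 members matched the RefSeq table, with 11 entries, since ATG5 has 2. A GC box was found in 9 of 10 members, all except BECN1, and in ATG5 in 1 of its 2 entries. Counted singly, 42.64% of all 35116 promoter windows of this length held a GC box. A CRE was found in 1 of 10 members, against 1.65% of all windows. The TFEB-type E-box CACGTG (in 6.34% of all windows), the AP-1 site TGACTCA (4.2%), the C/EBP-ATF site TGATGCAA (0.77%) and the forkhead site GTAAACA (2.98%) matched 0 of 10 members on either strand. TATAAA matched 1 member, ATG5, in 1 of its entries, against 10.72% of all windows. The GC content of the members' windows ran between 26.4%, in the ATG5 entry without a GC box, and 79.6%, against a median of 58.0% over all windows. GABARAPL1 (51.6%) and GABARAP (57.2%) also lay below that median, and the other windows of the members lay above it. A match is a description of these letters and says nothing of binding.

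Knockdown libraries were shallower than control libraries and richer in mitochondrial RNA. Total counts were 14516406 to 19463837 in siMapk14, 9246294 to 20136463 in siMapk8+9 and 31040067 to 31510571 in the controls. The 13 mitochondrially encoded genes took 32.1% to 45.0% of counts in siMapk14, 36.9%, 8.93% and 35.0% in siMapk8+9, and 1.56% to 2.03% in the controls. Replicate 2 of siMapk8+9 stood apart: the summed level of 10 epithelial markers was 1069 CPM there, 9.36 and 10.4 CPM in its mates, and 5.40 to 14.6 CPM in the controls, and all 10 markers were highest in it among the 12 libraries. CPM are counts relative to library size after scaling by the trimmed mean of M-values (TMM). Müller glia markers summed to 5520.0 to 6340.0 CPM in siMapk14, 7365 to 10713 CPM in siMapk8+9 and 5249 to 5495 CPM in the controls. Most of this came from VIM. RLBP1 and GFAP lay near 0 in every library, AQP4 was not analysed here, and neuron markers summed to at most 12.3 CPM. Single Müller glia markers that passed the test moved both ways. In siMapk14 CLU (log2 fold change 1.88) and PAX6 (0.48) were higher, and NFIX (-1.60), SLC1A3 (-0.96), SOX9 (-0.71), DKK3 (-0.28) and GLUL (-0.22) lower. In siMapk8+9 VIM (1.00) and GLUL (0.49) were higher, and NFIX (-2.15) and SOX2 (-1.50) lower. MAPK14 was lowered in siMapk14 (log2 fold change -1.20 ± 0.088 (SE), adjusted p = 9.95e-06), and MAPK8 (-1.48 ± 0.14 (SE), adjusted p = 0.000667) and MAPK9 (-1.49 ± 0.17 (SE), adjusted p = 0.00103) were lowered in siMapk8+9, where MAPK14 was lower too (-0.60 ± 0.17 (SE), adjusted p = 0.0258), though not with the length trend removed (adjusted p = 0.350). Fold changes also ran with transcript length in both knockdowns, so values with that trend removed are given beside those as fitted. With the mitochondrially encoded genes left out, the counts of members called were the same in every comparison, and the part of depth and of epithelial RNA in the results was not tested beyond the values without replicate 2.

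Relative to most other genes, core autophagy transcripts were mostly higher after either knockdown, with all 4 ATG8 genes among them, whereas total counts as the only scaling gave 3 higher and 6 lower in siMapk14 and 4 higher and 0 lower in siMapk8+9. In siMapk14, 7 of the 10 members rose, ATG9A and ATG7 fell, and ULK1 did not pass the test, against 59.9% of all genes tested that passed, 29.4% higher and 30.5% lower. In siMapk8+9, 8 of the 10 rose, 0 fell, and ULK1 and ATG9A did not pass, against 52.9% of all genes, 26.8% higher and 26.1% lower. Without replicate 2 of siMapk8+9, 8 rose and 1, ATG9A, fell, with a median log2 fold change of 1.03. Of all 13444 genes tested in that setting 71.1% passed, 4514 higher and 5040 lower, with a median of -0.095. The median log2 fold change of the members was 0.48 in siMapk14 and 0.90 in siMapk8+9, against -0.020 and -0.051 over all genes tested. After removal of the length trend, called length correction below, 4 rose and 1 fell in siMapk14 (all genes: 24.1% and 21.8%), and 7 rose and 0 fell in siMapk8+9 (21.3% and 16.3%). The median of the members was then 0.18 and 0.73, against 0.014 and 0.015 over all genes. Summed, the 10 genes made up 0.180% to 0.183% of all counts from nuclear genes in siMapk14, against 0.107% to 0.111% in its control. In siMapk8+9 they took 0.126% to 0.162%, lowest in replicate 2, against 0.0754% to 0.0767% in its control. These sums are not corrected for length, and MAP1LC3B gave the most counts of the members in every library. Without scaling beyond total counts, the median of all genes shifted to -0.79 in siMapk14 and -0.71 in siMapk8+9. The members' median was then -0.30 and 0.19. Of all 13183 genes tested in siMapk14, 729 were called higher and 8355 lower under that scaling, and of 13124 in siMapk8+9, 1122 and 4914. Thus 8.03% and 18.6% of all called genes were higher, in place of 49.1% and 50.6%, so directions below are relative to most other genes.

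**Figure D1:**
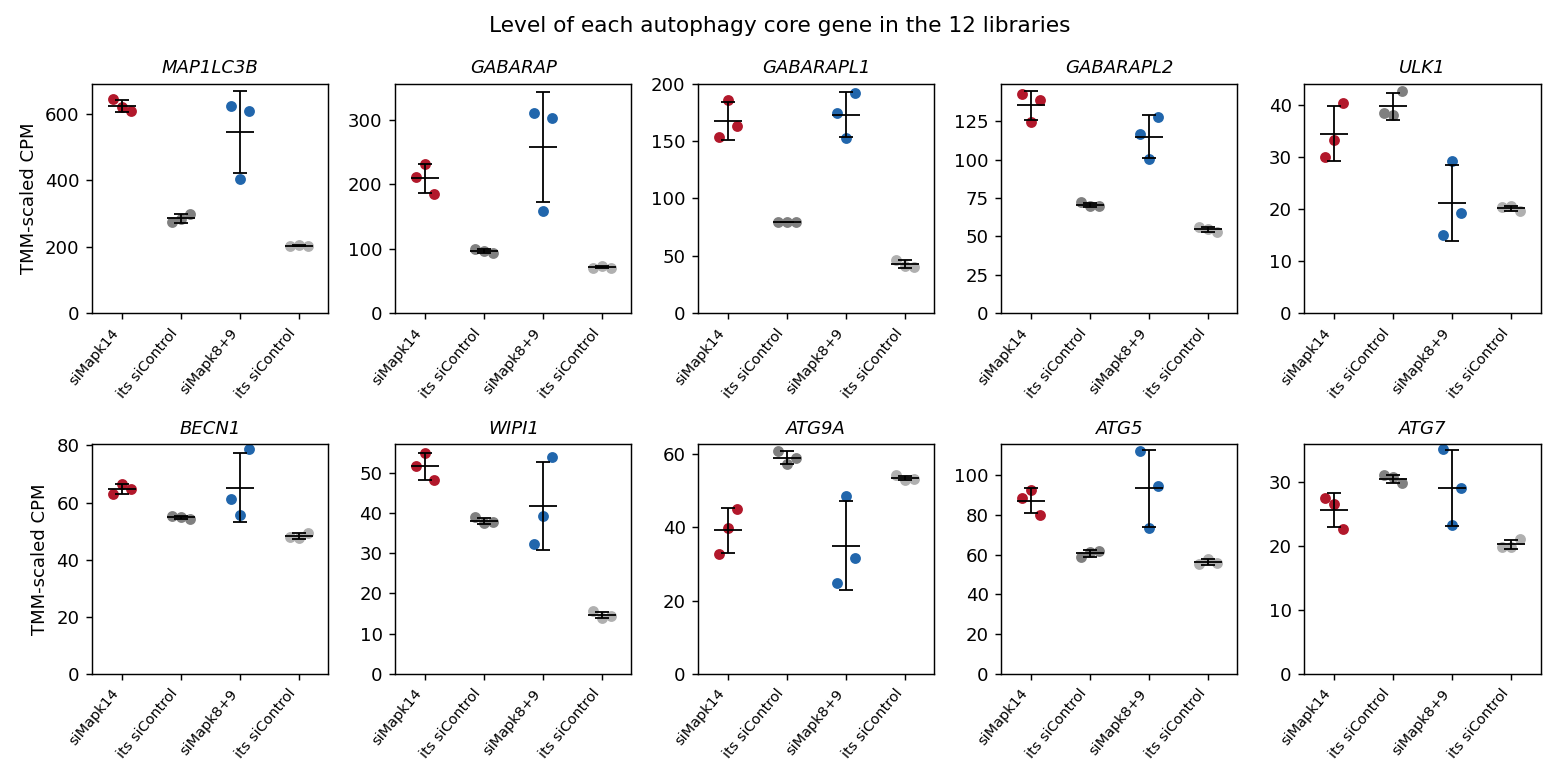
TMM-scaled CPM (y axis) of each of the 10 autophagy core genes in the 3 libraries of each group (x axis); points are libraries and bars are the mean ± SD. The ATG8 genes MAP1LC3B, GABARAP, GABARAPL1 and GABARAPL2 are higher in all 3 libraries of each knockdown than in any library of its siControl, while the groups of ULK1 overlap.

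All 4 ATG8 genes rose in both knockdowns, with log2 fold changes of 0.94 to 1.13 in siMapk14 and 1.07 to 2.02 in siMapk8+9. MAP1LC3B (gene ID 81631; chr16:87392336-87404774) encodes LC3B, the protein most often used to mark autophagosomes; positions are those of RefSeq on GRCh38.p14. It was at 644, 619 and 609.6 CPM in siMapk14 replicates 1, 2 and 3, against 273, 284 and 298 CPM in the control. All knockdown libraries lay above all controls, and the rise was 2.19-fold (log2 fold change 1.13 ± 0.061 (SE), adjusted p = 3.91e-06). In siMapk8+9 it was at 623, 404 and 608 CPM, against 203, 204 and 203 CPM. Replicate 2, the library with epithelial transcripts, was the lowest of the knockdown but still above the controls, and the rise was 2.68-fold (1.42 ± 0.19 (SE), adjusted p = 0.00160). Removing the length trend gave log2 fold changes of 0.88 ± 0.053 and 1.10 ± 0.16, and both passed. Its near-identical paralog MAP1LC3B2 had at most 3.99 CPM on average, and how the counting split reads between the pair is uncertain.

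GABARAP (gene ID 11337; chr17:7240008-7242449) encodes the founding member of the second ATG8 subfamily, which acts late, at closure of the autophagosome. It was at 211, 231 and 185 CPM in siMapk14, against 99.6, 97.0 and 93.9 CPM in the control. The groups did not overlap, and the log2 fold change was 1.11 ± 0.083 (SE) (adjusted p = 1.07e-05). In siMapk8+9 it was at 310.2, 159 and 303 CPM, against 70.4, 72.6 and 70.0 CPM. Replicate 2 sat far below its mates, and the log2 fold change of 1.85 ± 0.26 (SE) (adjusted p = 0.00190) had the widest error of the ATG8 genes. Without replicate 2 it was 2.12. Removal of the length trend left 0.47 ± 0.062 in siMapk14 and 0.96 ± 0.16 in siMapk8+9, and both passed. PHF23 overlaps GABARAP on the genome, and strandedness is not given, so reads in the shared stretch cannot be assigned; PHF23 itself had log2 fold changes of 0.16 (adjusted p = 0.125) and 1.02 (adjusted p = 0.00188).

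GABARAPL1 (gene ID 23710; chr12:10212877-10223128) encodes an ATG8 protein of the GABARAP subfamily; its promoter is the one shown above with a CRE. Its level was 153, 185 and 163 CPM in siMapk14, against 79.8, 79.3 and 79.8 CPM in the control, whose libraries were nearly equal. The rise was 2.10-fold (1.07 ± 0.076 (SE), adjusted p = 8.85e-06). In siMapk8+9 it was at 175, 153 and 192 CPM, against 46.7, 40.9 and 40.6 CPM. This was the highest fold change of any member, 4.05-fold (2.02 ± 0.13 (SE), adjusted p = 0.000246), and 3.00% of all genes tested had a higher one. Here replicate 2 lay close to its mates, unlike in MAP1LC3B and GABARAP. Length-corrected values were 0.71 ± 0.069 and 1.55 ± 0.10, and both passed.

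GABARAPL2 (gene ID 11345; chr16:75566379-75577881), also known as GATE-16 and linked to transport within the Golgi, has the shortest transcript of the members. It was at 143, 125 and 139 CPM in siMapk14, against 72.0, 69.6 and 69.6 CPM in the control, and at 117, 100.3 and 128 CPM in siMapk8+9, against 56.4, 54.7 and 53.0 CPM. No groups overlapped, and the log2 fold changes were 0.94 ± 0.068 (SE) (adjusted p = 9.03e-06) and 1.07 ± 0.12 (SE) (adjusted p = 0.000990). Both calls ended when the length trend was removed, with 0.12 ± 0.087 (adjusted p = 0.288) in siMapk14 and -0.034 ± 0.11 (adjusted p = 0.831) in siMapk8+9. With total counts as the only scaling all 4 ATG8 genes kept a positive log2 fold change in both knockdowns, but that of GABARAPL2, 0.17 and 0.37, no longer passed.

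ULK1 acts at the start of autophagy, and BECN1 in making its lipid signal. ULK1 (gene ID 8408; chr12:131894622-131923150), the initiating kinase, has the longest transcript of the members. It was at 30.0, 33.2 and 40.3 CPM in siMapk14, against 38.4, 38.1 and 42.6 CPM in the control, and at 15.1, 29.2 and 19.2 CPM in siMapk8+9, against 20.3, 20.5 and 19.5 CPM. In both experiments the groups overlapped, and in siMapk8+9 the outlying high library was again replicate 2. Neither difference passed, at -0.20 ± 0.12 (SE) (adjusted p = 0.172) in siMapk14 and 0.090 ± 0.24 (SE) (adjusted p = 0.770) in siMapk8+9. Without siMapk14 replicate 3 ULK1 was lower (-0.34, adjusted p = 0.0145), and after length correction it was higher in siMapk8+9 (0.67 ± 0.18, adjusted p = 0.0286) and did not pass in siMapk14 (0.24 ± 0.11, adjusted p = 0.0936); total counts gave -0.96 (adjusted p = 0.00220) and -0.51 (adjusted p = 0.350).

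BECN1 (gene ID 8678; chr17:42810132-42824282) encodes Beclin 1, the regulatory subunit of the lipid kinase complex. It was at 62.9, 66.4 and 64.7 CPM in siMapk14, against 55.3, 54.8 and 54.4 CPM in the control. This rise of 1.18-fold (0.24 ± 0.065 (SE), adjusted p = 0.0111) was the smallest that passed among the members, and it turned to -0.54 with total counts as the only scaling. In siMapk8+9 BECN1 was at 61.2, 55.7 and 78.8 CPM, against 48.0, 47.4 and 49.4 CPM (0.43 ± 0.15 (SE), adjusted p = 0.0442), and total counts gave -0.28. The libraries of knockdown and control did not overlap in either experiment. After length correction neither value passed (-0.035 ± 0.062 and 0.085 ± 0.12). The siMapk14 call was also lost without control replicate 2 or 3 (adjusted p = 0.0638 and 0.0613) and with no filter on low counts (adjusted p = 0.0520), and the siMapk8+9 call without any 1 library except siMapk8+9 replicate 2 (adjusted p up to 0.142) and with no filter (adjusted p = 0.0880).

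Of the genes that supply membrane, WIPI1 rose in both knockdowns (in siMapk14 not with total counts as the only scaling), and ATG9A fell in siMapk14. WIPI1 (gene ID 55062, chr17:68421281-68457496) encodes a protein that binds the lipid signal on the growing membrane. Its level was 51.7, 54.9 and 48.0 CPM in siMapk14, against 38.9, 37.6 and 37.7 CPM in the control. All 3 knockdown libraries were above the controls, by 1.35-fold (0.43 ± 0.078 (SE), adjusted p = 0.00123), but the value was -0.34 with total counts and 0.090 ± 0.072 (adjusted p = 0.340) without the length trend. In siMapk8+9 it was at 32.3, 39.1 and 53.8 CPM, against 15.5, 13.98 and 14.3 CPM. The groups did not overlap, and the rise was 2.86-fold (1.51 ± 0.20 (SE), adjusted p = 0.00166), and 1.07 ± 0.18 (adjusted p = 0.00573) after length correction. The gene overlaps ARSG and PRKAR1A; PRKAR1A, the more abundant, had log2 fold changes of -0.26 and -0.16.

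ATG9A (gene ID 79065; chr2:219219380-219229636) encodes the lipid-scrambling membrane protein of the vesicles that seed the autophagosome. It was at 32.7, 39.7 and 44.9 CPM in siMapk14, against 60.6, 57.1 and 58.9 CPM in the control. The groups did not overlap, and ATG9A fell to 66.6% of control (-0.59 ± 0.11 (SE), adjusted p = 0.00174), with a length-corrected log2 fold change of -0.37 ± 0.11 (adjusted p = 0.0192). In siMapk8+9 it was at 24.7, 48.4 and 31.7 CPM, against 54.1, 53.0 and 53.2 CPM. All 3 libraries were below the controls, with replicate 2 closest to them, and the difference of -0.60 ± 0.24 (SE) did not pass (adjusted p = 0.0703), nor did -0.31 ± 0.19 after length correction (adjusted p = 0.225). Without replicate 2 it passed, at -0.92 (adjusted p = 0.000125).

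The conjugation genes ATG5 and ATG7 did not move alike. ATG5 (gene ID 9474; chr6:106184476-106325760) forms the ATG12 conjugate that helps attach ATG8 proteins to the membrane. It was at 88.7, 92.4 and 80.1 CPM in siMapk14, against 58.6, 61.4 and 61.8 CPM in the control, and at 112, 73.5 and 94.6 CPM in siMapk8+9, against 55.4, 57.8 and 55.6 CPM. No groups overlapped, and ATG5 rose in both, by 0.52 ± 0.073 (SE) (adjusted p = 0.000300) and 0.73 ± 0.16 (SE) (adjusted p = 0.00937) on the log2 scale. After length correction both rises passed (0.46 ± 0.072 and 0.68 ± 0.17), whereas total counts gave -0.26 in siMapk14 and 0.0062 in siMapk8+9.

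ATG7 (gene ID 10533; chr3:11272397-11576353), the activating enzyme shared by both conjugation systems, was the 1 member called in opposite directions. Its level was 27.6, 26.6 and 22.7 CPM in siMapk14, against 31.0, 30.7 and 29.8 CPM in the control. The groups did not overlap, and the decrease (-0.26 ± 0.099 (SE)) passed narrowly (adjusted p = 0.0497). It was lost without siMapk14 replicate 3 (adjusted p = 0.0731) or any 1 control library (adjusted p up to 0.150), and after length correction (-0.046 ± 0.10, adjusted p = 0.744). In siMapk8+9 ATG7 was at 35.1, 23.2 and 29.1 CPM, against 19.8, 19.8 and 21.1 CPM. The groups did not overlap, and here it rose (0.52 ± 0.17 (SE), adjusted p = 0.0408), and by 0.79 ± 0.20 (adjusted p = 0.0213) after length correction, but the value was -0.20 with total counts. That call was lost without siMapk8+9 replicate 1 or 3 or any 1 control library (adjusted p = 0.0815 to 0.133), and with no filter on low counts (adjusted p = 0.0757).

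Counting libraries instead of tests, the groups did not overlap for 9 of the 10 members in siMapk14, 7 higher and 2 lower, against 68.6% of all genes tested (32.9% higher and 35.7% lower). In siMapk8+9 they did not overlap for 9 of 10, 8 higher and 1 lower, against 67.9% (31.6% higher and 36.3% lower). The member with overlap was ULK1 in both experiments. By the test, 7 members rose in both, while 29.4% of all genes rose in siMapk14 and 26.8% in siMapk8+9. The share of all genes that rose in both was not counted, so these 7 cannot be set against it. Without replicate 2, the log2 fold changes in siMapk8+9 were 1.61 for MAP1LC3B, 2.11 for GABARAPL1, 1.17 for GABARAPL2, -0.23 for ULK1, 0.54 for BECN1, 1.56 for WIPI1, 0.89 for ATG5 and 0.68 for ATG7, and of these ULK1 did not pass. BECN1 also overlaps CNTD1, and ATG7 overlaps VGLL4, on the genome.

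Per transcript length, the ATG8 genes had the highest means of the members in every group, with GABARAPL1 overlapping BECN1 in the control of siMapk8+9. Levels of different genes are compared here in the authors' FPKM (fragments relative to transcript length and to all fragments of the library), as mean ± SD over 3 libraries. In siMapk14 MAP1LC3B was at 254 ± 30.1, GABARAP at 151 ± 2.76, GABARAPL2 at 147 ± 26.4 and GABARAPL1 at 79.3 ± 8.47 FPKM, against 202 ± 9.05, 124 ± 3.82, 135 ± 3.51 and 66.4 ± 0.506 FPKM in the control. In siMapk8+9 the same 4 genes were at 226 ± 6.42, 189 ± 20.7, 133 ± 22.2 and 85.8 ± 14.9 FPKM, against 142 ± 1.37, 90.8 ± 2.22, 107 ± 5.00 and 35.5 ± 2.93 FPKM in the control. MAP1LC3B stood first throughout, GABARAP lay below GABARAPL2 in both controls, and GABARAPL1 came after them. In siMapk8+9 the mean of GABARAP lay above that of GABARAPL2; in siMapk14 it did so through replicate 2, and GABARAPL2 was the higher of the pair in replicates 1 and 3. BECN1, ATG5 and WIPI1 followed in siMapk14 (27.0 ± 3.72, 25.5 ± 0.271 and 24.0 ± 1.59 FPKM, against 39.8 ± 0.318, 34.1 ± 1.80 and 30.9 ± 0.621 in its control), and ATG9A, ULK1 and ATG7 were lowest (8.70 ± 2.26, 5.28 ± 1.45 and 5.27 ± 0.764, against 22.3 ± 0.669, 10.4 ± 0.688 and 11.9 ± 0.605). The siMapk8+9 experiment gave BECN1, ATG5 and WIPI1 at 28.4 ± 4.94, 27.1 ± 5.29 and 20.5 ± 6.32 FPKM, against 34.9 ± 0.662, 30.6 ± 1.28 and 11.7 ± 0.703, and ATG9A, ATG7 and ULK1 at 8.63 ± 5.47, 6.42 ± 1.14 and 3.57 ± 2.24, against 19.9 ± 0.262, 8.03 ± 0.263 and 5.14 ± 0.153, so that WIPI1 stood below ATG9A in that control and above it in the knockdown. Neighbours in the order had overlapping libraries in 4 of 9 pairs in siMapk14 (GABARAP and GABARAPL2, BECN1 and ATG5, ATG5 and WIPI1, ULK1 and ATG7) against 0 of 9 in its control, and in 5 of 9 in siMapk8+9 (all pairs from BECN1 downwards) against 1 of 9 in its control (GABARAPL1 and BECN1). FPKM are divided by all fragments, mitochondrial ones included, so they set the order of genes within a group and not the change between groups.

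Log2 fold changes of the members ran with transcript length. Effective lengths, taken as count over FPKM, ran from GABARAPL2 at 695 bases in the siMapk14 experiment through GABARAP (1039.8), GABARAPL1 (1592), WIPI1 (1626), BECN1 (1811), MAP1LC3B (1868), ATG5 (2419.7), ATG7 (3423) and ATG9A (3463) to ULK1 at 5044 bases. Over all genes the median log2 fold change was 0.72 in the shortest and -0.58 in the longest of 5 equal length classes in siMapk14, and 0.96 and -0.79 in siMapk8+9. Across the 10 members, which share libraries, Spearman's rho between log2 fold change and effective length was -0.68 in siMapk14 and -0.77 in siMapk8+9, and -0.36 and -0.28 with the trend removed. Length correction took 0.82 in siMapk14 and 1.10 in siMapk8+9 from the log2 fold change of GABARAPL2, near its values as fitted. From MAP1LC3B it took 0.25 and 0.32, and from GABARAPL1 0.36 and 0.47, less than the values of both genes. Among the members, MAP1LC3B, GABARAP, GABARAPL1 and ATG5 rose in both knockdowns with the trend removed; WIPI1, ULK1 and ATG7 did so in siMapk8+9; ATG9A fell in siMapk14.

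**Figure D2:**
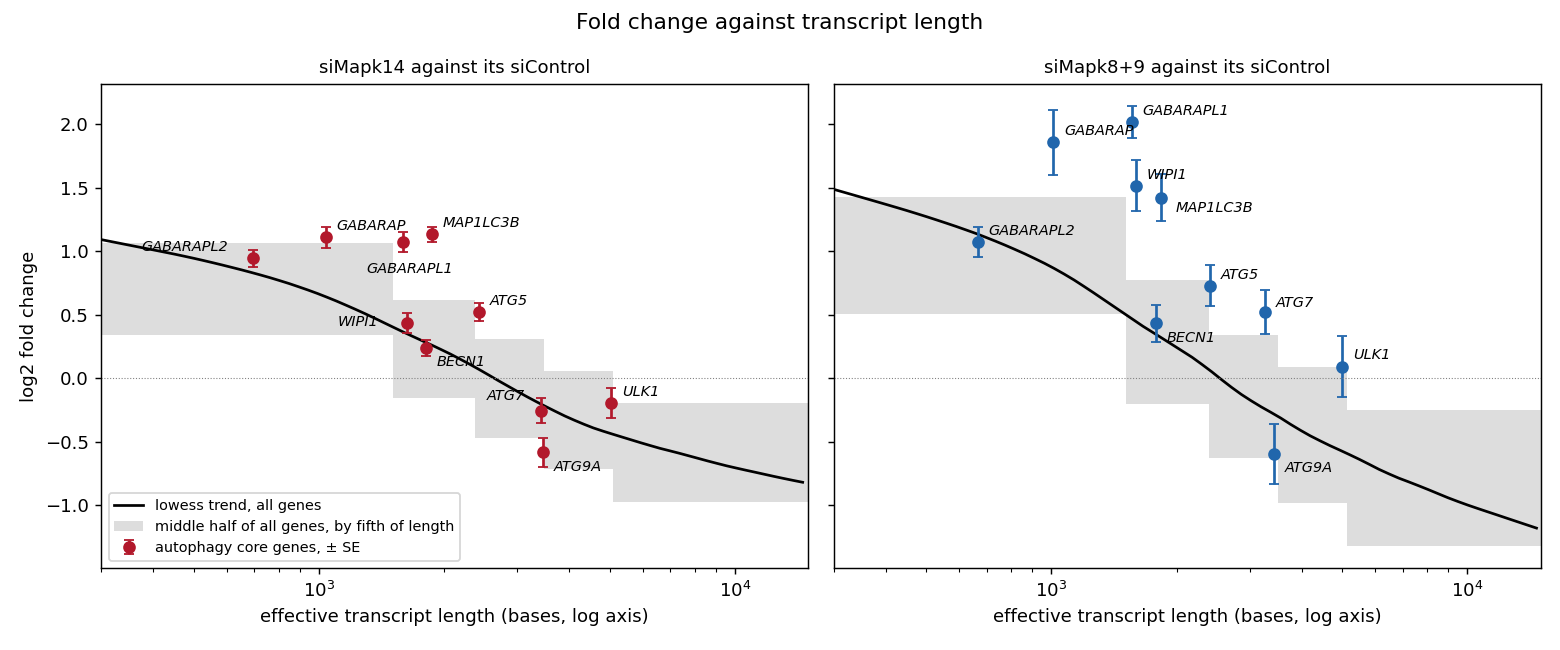
Log2 fold change (y axis) against effective transcript length in bases (x axis, log scale) for siMapk14 and siMapk8+9, each against its siControl; points are the 10 autophagy core genes ± SE, the line is the lowess trend of all genes and grey bars span the interquartile range of all genes in each of 5 length classes. GABARAPL2 lies near the line in both panels, at 0.94 and 1.07, while MAP1LC3B and GABARAPL1 lie above it.

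**Figure D3:**
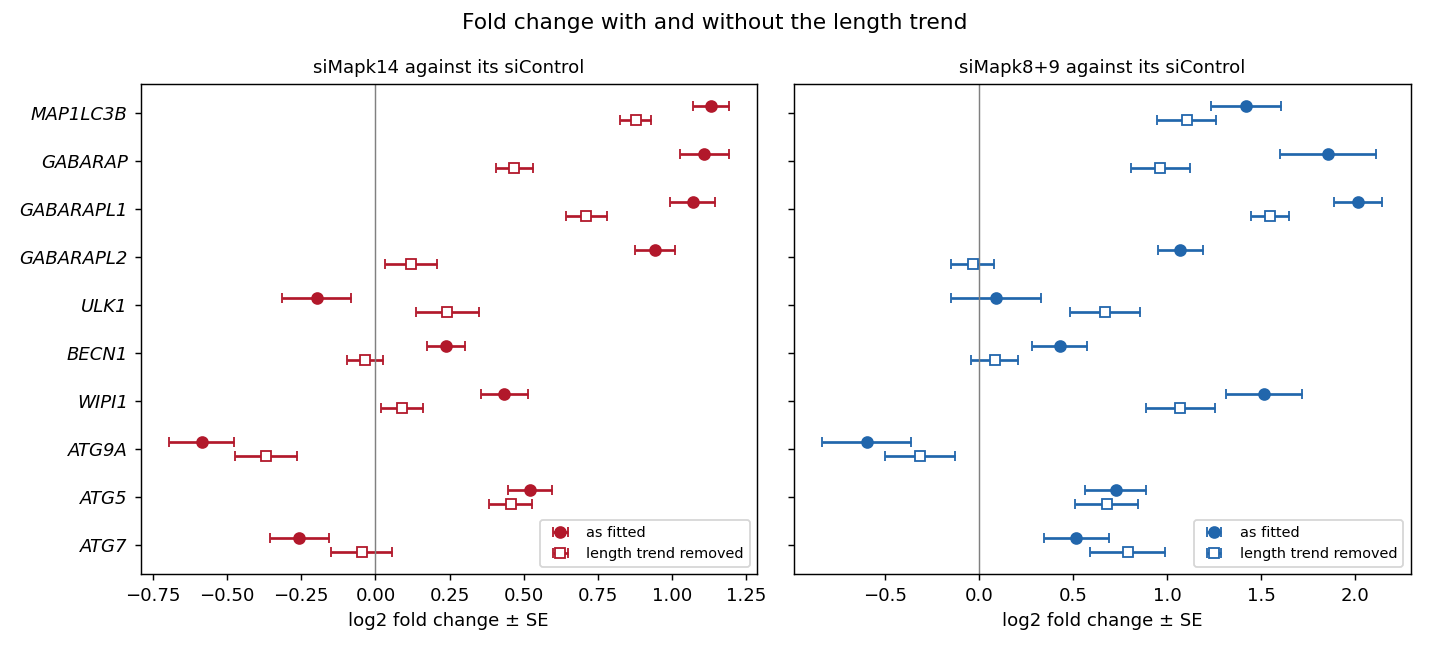
Log2 fold change ± SE (x axis) of each autophagy core gene (y axis) in siMapk14 and siMapk8+9, each against its siControl, as fitted (filled) and after length correction (open). Open symbols of GABARAPL2 sit at 0.12 and -0.034, next to 0, whereas those of MAP1LC3B sit at 0.88 and 1.10.

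The effect of siMapk14 lay below that of siMapk8+9 for GABARAPL1, WIPI1 and ATG7. The siMapk14 effect minus the siMapk8+9 effect, tested in 1 fit of all 12 libraries, passed in the negative direction for these 3 members and in the positive direction for 0, against 15.9% of all genes (6.87% positive and 9.02% negative). On the log2 scale it was -0.95 ± 0.15 (SE) for GABARAPL1 (adjusted p = 0.00134), -1.08 ± 0.21 (SE) for WIPI1 (adjusted p = 0.00512) and -0.78 ± 0.20 (SE) for ATG7 (adjusted p = 0.0212). The same 3 passed after length correction, at -0.83 ± 0.12, -0.98 ± 0.20 and -0.84 ± 0.23 (all genes: 18.1%, 7.47% positive and 10.7% negative). Without siMapk8+9 replicate 2, MAP1LC3B (-0.42), GABARAP (-0.96) and ATG5 (-0.32) passed as well, so 6 were negative. In that setting 37% of all genes passed, 2807 of 14052 in the positive and 2398 in the negative direction. The ATG7 call was lost without any 1 control library of siMapk14 or without replicate 1 or 2 of the siMapk8+9 control (adjusted p = 0.0512 to 0.0600).

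Scaled together, the 2 knockdowns held like levels of GABARAPL1, and the controls held unlike ones. GABARAPL1 averaged 169 ± 16.6 CPM in siMapk14 and 169 ± 18.6 CPM in siMapk8+9, against 81.9 ± 0.288 and 42.3 ± 3.44 CPM in their controls (SD, n = 3 each). The control of siMapk14 was thus 1.94 times the control of siMapk8+9, while the knockdowns stood in a ratio of 1.00. WIPI1 averaged 51.9 ± 3.43 CPM in siMapk14 and 40.7 ± 10.6 CPM in siMapk8+9, against 39.1 ± 0.767 and 14.4 ± 0.828 CPM in their controls. Its controls stood in a ratio of 2.71 and its knockdowns in a ratio of 1.28, with overlapping libraries in the knockdowns. ATG7 averaged 25.8 ± 2.61 CPM in siMapk14 and 28.4 ± 5.78 CPM in siMapk8+9, against 31.4 ± 0.660 and 20.0 ± 0.707 CPM in their controls. ULK1 differed between controls too, by a ratio of 2.05, while its knockdowns stood in a ratio of 1.69. For the other 6 members the control of siMapk14 was 1.12 to 1.46 times that of siMapk8+9. The experiment and its batch label cannot be told apart in any comparison of levels across the experiments.

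The rest of the autophagy machinery moved in both directions. Of 48 further autophagy genes, 46 were tested in siMapk14, where 21 rose and 9 fell, with a median log2 fold change of 0.18. In siMapk8+9, 45 were tested, 14 rose and 15 fell, with a median of 0.093. Without replicate 2, 19 rose and 16 fell (of all 13444 genes, 4514 and 5040). After length correction, 24 of these genes rose and 3 fell in siMapk14, while 18 were up and 2 down in siMapk8+9. Total counts as the only scaling gave 3 higher and 30 lower in siMapk14 and 7 higher and 18 lower in siMapk8+9. Of all genes tested, that scaling gave 729 higher and 8355 lower of 13183 in siMapk14, and 1122 and 4914 of 13124 in siMapk8+9. Directions here are therefore again relative to most other genes. The shares of all genes that rose or fell as fitted and after length correction are given above.

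Cargo receptors, which bind ATG8 proteins and bring them their load, were called higher more often than lower in both knockdowns, but not in siMapk14 with total counts as the only scaling. In siMapk14 4 of 7 rose and 1 fell, and in siMapk8+9 5 of 7 rose and 1 fell, after length correction 6 of 7 rose and 0 fell in each, and total counts gave 1 higher and 5 lower in siMapk14 and 3 higher and 1 lower in siMapk8+9. SQSTM1, the gene of the receptor p62, was at 4358, 4174 and 4028 CPM in siMapk14, against 1505, 1601 and 1651 CPM in the control, and at 3371, 2297 and 3293 CPM in siMapk8+9, against 914, 925 and 940.3 CPM. The groups did not overlap, and the log2 fold changes of 1.40 ± 0.075 (SE) (adjusted p = 3.91e-06) and 1.69 ± 0.20 (SE) (adjusted p = 0.00114) were close to those without the length trend (1.38 ± 0.062 and 1.70 ± 0.18). OPTN, the gene of optineurin, a receptor for damaged mitochondria, averaged 145 ± 27.6 CPM in siMapk8+9, against 50.6 ± 0.862 CPM in its control (1.52 ± 0.16 (SE), adjusted p = 0.000807; 1.75 ± 0.19 after length correction). OPTN rose in siMapk14 as well (0.58 ± 0.066 (SE), adjusted p = 8.29e-05, and 0.73 ± 0.069 after length correction). WDFY3, the gene of the large scaffold ALFY, fell in both, at -1.08 ± 0.19 (SE) (adjusted p = 0.00122) and -1.24 ± 0.19 (SE) (adjusted p = 0.00266), but not after length correction (-0.27 ± 0.20 and -0.084 ± 0.14).

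In the initiation complex around ULK1, 1 rose and 1 fell of 4 tested in siMapk14, and 1 rose and 1 fell of 4 in siMapk8+9 (with total counts 0 higher and 3 lower, and 1 higher and 1 lower); 3 passed upward and 1 downward in siMapk14, and 2 and 0 in siMapk8+9, after length correction. ATG101, which stabilises the ATG13 subunit, averaged 71.1 ± 9.77 CPM in siMapk14, against 35.2 ± 0.916 CPM in its control (1.01 ± 0.10 (SE), adjusted p = 4.47e-05; 0.43 ± 0.094 after length correction). ULK2, the close relative of ULK1, averaged 18.7 ± 1.98 CPM in siMapk14, against 35.5 ± 1.75 CPM in its control, and fell (-0.93 ± 0.10 (SE), adjusted p = 8.11e-05), also after length correction (-0.39 ± 0.11, adjusted p = 0.0169). In siMapk8+9 ATG101 rose too (1.485 ± 0.17 (SE), adjusted p = 0.00105, and 0.71 ± 0.12 after length correction). ULK2 fell there as well (-0.91 ± 0.19 (SE), adjusted p = 0.00740), but not after length correction (-0.13 ± 0.18). Among partners of BECN1 in the lipid kinase complex, 2 rose and 1 fell of 7 tested in siMapk14, and 1 rose and 3 fell of 7 in siMapk8+9 (with total counts 0 higher and 5 lower, and 1 higher and 4 lower); 4 passed upward and 0 downward in siMapk14, and 4 and 0 in siMapk8+9, after length correction. NRBF2, a regulatory subunit, averaged 40.9 ± 7.36 CPM in siMapk8+9, against 12.6 ± 0.0566 CPM in its control (1.70 ± 0.16 (SE), adjusted p = 0.000590; 1.19 ± 0.13 after length correction). PIK3R4, the gene of the scaffold VPS15, averaged 17.0 ± 9.07 CPM in siMapk8+9, against 37.5 ± 1.08 CPM in its control (-1.10 ± 0.34 (SE), adjusted p = 0.0310), a call that ended after length correction (adjusted p = 0.130). In siMapk14 NRBF2 rose too (0.71 ± 0.096 (SE), adjusted p = 0.000217, and 0.33 ± 0.098 after length correction). PIK3R4 fell there as well (-0.48 ± 0.11 (SE), adjusted p = 0.00358), but not after length correction (-0.073 ± 0.10).

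Among genes of ATG8 conjugation and processing, 5 rose and 0 fell of 8 tested in siMapk14, and 1 rose and 2 fell of 8 in siMapk8+9 (with total counts 1 higher and 4 lower, and 0 higher and 2 lower); 4 passed upward and 0 downward in siMapk14, and 1 and 0 in siMapk8+9, after length correction. ATG3, the enzyme that couples ATG8 proteins to lipid, averaged 169.7 ± 23.7 CPM in siMapk14, against 74.2 ± 2.50 CPM in its control (1.19 ± 0.098 (SE), adjusted p = 1.58e-05; 0.63 ± 0.079 after length correction). In siMapk8+9 ATG3 rose too (1.06 ± 0.24 (SE), adjusted p = 0.00946), but not after length correction (0.31 ± 0.16). The 2 other LC3 genes tested, MAP1LC3A and MAP1LC3B2, rose in both knockdowns and neither did so after length correction, nor in siMapk14 with total counts as the only scaling. MAP1LC3A averaged 18.8 ± 3.64 CPM in siMapk8+9, against 6.30 ± 0.532 CPM in its control (1.56 ± 0.20 (SE), adjusted p = 0.00141; 0.43 ± 0.14, adjusted p = 0.0513 with the trend removed) and 13.9 ± 0.541 CPM in siMapk14, against 7.89 ± 0.404 CPM in its control (0.82 ± 0.13 (SE), adjusted p = 0.000553). For membrane supply, 4 rose and 1 fell of 7 tested in siMapk14, and 2 rose and 2 fell of 7 in siMapk8+9 (with total counts 0 higher and 5 lower, and 0 higher and 2 lower); 4 passed upward and 0 downward in siMapk14, and 2 and 1 in siMapk8+9, after length correction. The lipid-transfer genes ATG2A and ATG2B have long transcripts: ATG2A averaged 5.33 ± 1.21 CPM in siMapk14, against 9.92 ± 0.259 CPM in its control (-0.88 ± 0.18 (SE), adjusted p = 0.00315) and ATG2B 9.43 ± 3.24 CPM in siMapk8+9, against 26.2 ± 0.0642 CPM in its control (-1.44 ± 0.24 (SE), adjusted p = 0.00343), and neither passed after length correction.

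For fusion with the lysosome, 3 rose and 3 fell of 6 tested in siMapk14, and 0 rose and 4 fell of 5 in siMapk8+9 (with total counts 1 higher and 5 lower, and 0 higher and 5 lower); 2 passed upward and 1 downward in siMapk14, and 1 and 1 in siMapk8+9, after length correction. EPG5, a tether of autophagosomes with a transcript of 12265 bases, fell in both (-1.07 ± 0.12 (SE), adjusted p = 8.77e-05, and -1.24 ± 0.17 (SE), adjusted p = 0.00170), and in neither after length correction (-0.30 ± 0.14 and -0.12 ± 0.21). Among transcription factors of autophagy genes, 0 rose and 2 fell of 5 tested in siMapk14, and 2 rose and 2 fell of 5 in siMapk8+9 (with total counts 0 higher and 3 lower, and 0 higher and 3 lower); 1 passed upward and 1 downward in siMapk14, and 2 and 0 in siMapk8+9, after length correction. Of 46 genes tested for a difference between the 2 effects, 4 passed in the positive and 6 in the negative direction, against 6.87% and 9.02% of all genes. Among genes that passed and averaged 5 CPM or more, the highest differences were those of ATG4C, a protease that processes ATG8 proteins (0.94 ± 0.24 (SE), adjusted p = 0.0185; 0.93 ± 0.23, adjusted p = 0.0164 after length correction), AMBRA1 (0.65), VMP1 (0.63) and YKT6 (0.53), and the lowest were those of the receptor gene CALCOCO2 (-1.06 ± 0.18 (SE), adjusted p = 0.00267; -1.13 ± 0.22, adjusted p = 0.00348), NRBF2 (-0.99), OPTN (-0.94) and MAP1LC3A (-0.75, adjusted p = 0.113 after length correction).

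**Figure D4:**
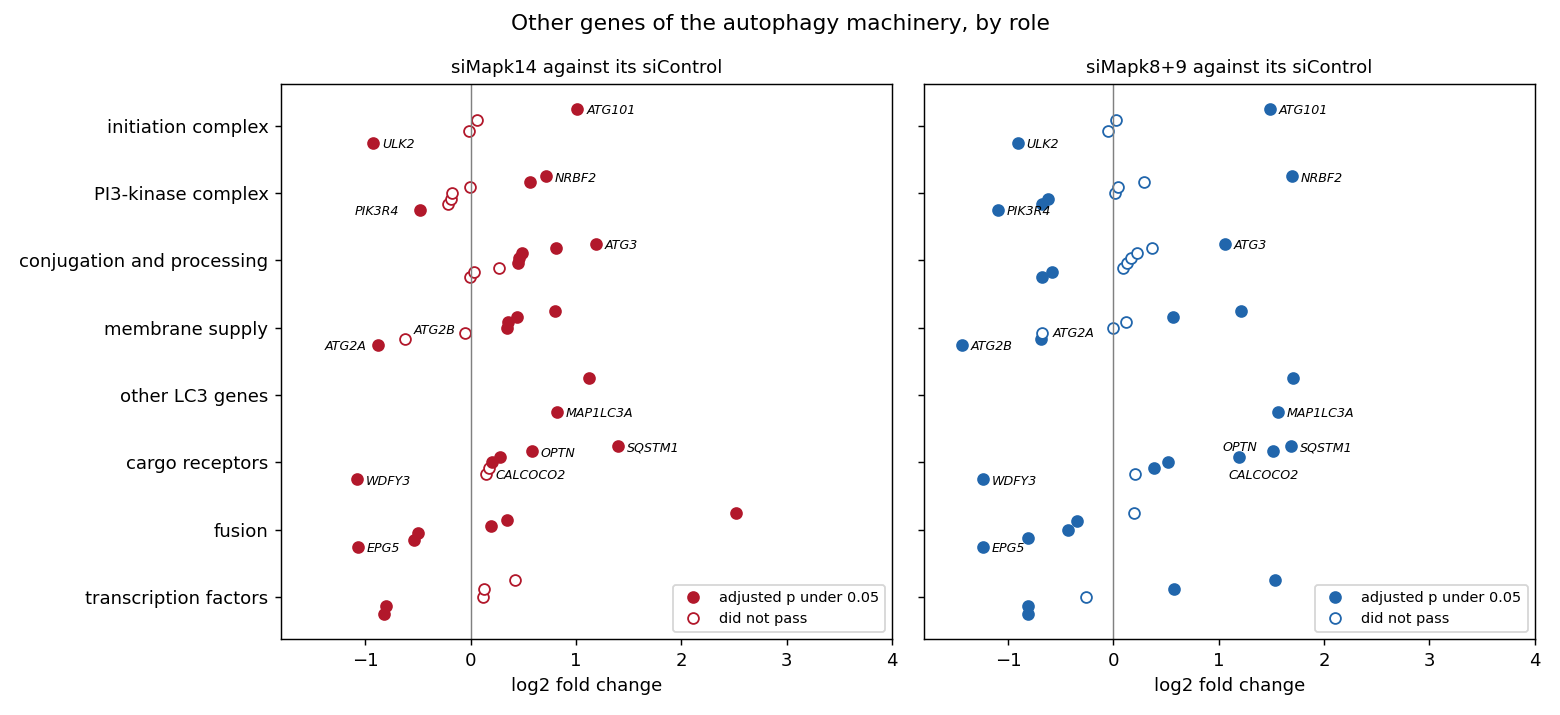
Log2 fold change (x axis) of the further autophagy genes, grouped by role (y axis), in siMapk14 and siMapk8+9, each against its siControl; each point is a gene, filled where its adjusted p was under 0.05. SQSTM1 lies at 1.40 and 1.69, and EPG5 and WDFY3, with long transcripts, lie below -1 in both panels.

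Genes with the pattern most like a member's were sought for the members with the highest and the lowest mean log2 fold change over both knockdowns, GABARAPL1 and ATG9A. Likeness was the root mean square difference of log2 CPM, each as a deviation from the mean of its own control, over the 12 libraries and among 8862 genes. Closest to GABARAPL1 were RSL24D1, a ribosome assembly factor (0.0858; log2 fold changes 1.11 and 1.94), and PAIP2, a translation inhibitor (0.111; 0.98 and 2.15). Closest to ATG9A were ALG9, a glycosylation enzyme (0.0879; -0.60 and -0.65), and KIAA0753, a centriole protein gene (0.0888; -0.68 and -0.64).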

How the data were processed

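Messenger RNA from 12 libraries of MIO-M1 cells was measured, in 4 groups of 3. For each experiment the authors deposited a table, of 17598 genes for siMapk14 and 17146 for siMapk8+9, and 16752 genes stand in both. The deposited expected counts are estimated fragments per gene, not normalized, and were rounded before use. The deposited FPKM are the authors' fragments relative to effective transcript length and to all fragments of the library. Listed in the submitters' processing notes are GRCh38.p14, RSEM 1.3.1, DESeq2 1.4.5 and Bowtie2 2.3.4.3, with no role or order; annotation and strand are not given in the sources used here. Per the labels, poly(A) RNA was captured and primed with random hexamers. The tables hold 24 more per-library columns, which no step used.

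Counts were analysed in R 4.3.3 with edgeR 4.0.16: filterByExpr (minimum count 10, minimum total 15), TMM scaling, and robust quasi-likelihood F-tests of each knockdown against its own control. The difference of the 2 effects was tested in 1 fit of 12 libraries. The Benjamini-Hochberg adjustment ran over every gene tested, and calls were made at 0.05. The length alternative removes, in each library, a lowess trend (span 0.3) of log2 CPM on log2 effective length, which is count over FPKM scaled by library total, for values of at least 10 counts and 0.2 FPKM. Alternatives were DESeq2's size factors (RLE), total counts, no filter, DESeq2 1.42.0, the replicate number as a block, the length trend with and without that block, mitochondrially encoded genes left out, and each library left out. The scripts were tested on simulated data. Before TMM scaling 1 count equals 0.0317 to 0.108 CPM across libraries; a gene at 0 could thus hold up to 3 counts by counting error alone.

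Named besides the 10 members and the siRNA targets were, per comparison, up to 4 of the highest and 4 of the lowest log2 fold changes of the 48 further genes called and averaging 5 CPM or more, and the 2 genes most like GABARAPL1 and ATG9A among those of at least 10 CPM. The members, the lists and the tests were chosen with earlier results of these data known. Promoter windows come from RefSeq (GRCh38.p14). Python 3.11.15 and matplotlib 3.10.9 made the figures.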

Additional observations from a re-analysis of the deposited data

Results flagged for a closer look

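For 3 autophagy core genes the effect of siMapk14 differed from that of siMapk8+9 by a test of the difference itself (edgeR, adjusted over all genes tested). GABARAPL1 differed by -0.95 on the log2 scale (adjusted p = 0.00134), with effects of 1.07 in siMapk14 and 2.02 in siMapk8+9, both upward in 3 of 3 knockdown libraries. WIPI1 differed by -1.08 (adjusted p = 0.00512), with effects of 0.43 and 1.51, also upward in 3 of 3 libraries of each. ATG7 differed by -0.78 (adjusted p = 0.0212), with effects of -0.26 and 0.52, downward in 3 of 3 siMapk14 libraries and upward in 3 of 3 siMapk8+9 libraries. The experiments carry different batch labels, which cannot be told apart from the knockdowns here.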

How the results depend on the processing

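Of the members called in siMapk14, 7 higher and 2 lower, total counts gave 3 higher and 6 lower, with BECN1 at -0.54, WIPI1 at -0.34 and ATG5 at -0.26. Length correction left 4 higher and 1 lower, with or without the replicate block (ULK1 0.24 and 0.23 with the block; BECN1 -0.035 and -0.035). No filter left 6 higher in siMapk14 and 6 higher in siMapk8+9, against 3640 of all 17157 and 3275 of all 17130 genes. RLE factors, DESeq2 and the replicate block each left 1 lower, against 3958, 4027 and 3962 of all 13183 genes. Leaving out 1 library left 6 to 7 higher and 1 to 2 lower, and of all genes 3141 to 4115 higher and 3269 to 4497 lower. In siMapk8+9, with 8 higher and 0 lower, total counts gave 4 higher (ULK1 -0.51, BECN1 -0.28, ATG7 -0.20). DESeq2 and the replicate block each gave 1 lower, ATG9A, against 3665 and 3185 of all 13124 genes. Leaving out 1 library gave 6 to 8 higher and 0 to 1 lower, with ULK1 between -0.23 (without siMapk8+9 replicate 2) and 0.27 (without replicate 1). Of all genes, 2307 to 4514 were then higher and 2198 to 5040 lower. GABARAPL2 was at -0.034 with the length trend removed, -0.041 with the block too and -0.14 without replicate 2, a setting chosen after seeing the data, which gave 7 higher and 1 lower. That setting called 4161 of all 13444 genes higher and 3928 lower. In siMapk8+9 all genes past the threshold numbered 6938 as fitted, 3920 with the block and the length trend removed, and 4509 to 9554 with 1 library left out.

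For the difference, 2169 genes passed, against 1028 under total counts, 1179 under the replicate block and 1266 to 5205 with 1 library left out, when 2 to 6 members were negative. The block ended the ATG7 call (adjusted p = 0.0583). GABARAPL2 turned to 0.16 with the length trend removed and 0.16 with the block too. ATG9A, near 0, turned to 0.042 under the block, 0.025 without mitochondrially encoded genes, 0.11 without siMapk14 replicate 1, 0.014 without its control replicate 1 and 0.38 without siMapk8+9 replicate 2, where ULK1 was at 0.084, against -0.50 without replicate 1. Total counts also moved the share of higher calls to 8.03% in siMapk14 (TMM: 49.1%), 18.6% in siMapk8+9 (50.6%) and 17.9% for the difference (43.2%), and leaving out siMapk8+9 replicate 2 moved the last to 53.9%. The cause was not tested. Same-numbered libraries of knockdown and control did not deviate together (correlations of -0.030 to 0.048). With 3 libraries a group these values cannot show whether the numbers pair libraries, which is not stated, and the main fit did not pair them. Under the block the calls of ATG7 in siMapk14 and of BECN1 and ATG7 in siMapk8+9 were lost. With 3 libraries a group and at least 14516406 counts in each library of the siMapk14 experiment, a difference as small as that of BECN1 in siMapk14 was lost when control replicate 2 or 3 was left out.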

Other observations

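The effective lengths of 2 members differed between libraries of the same experiment, while those of the other 8 stayed within 0.0499 log2 units of their median. In the authors' estimates ATG5 had effective lengths of 2565, 2470.0 and 2757 bases in siMapk14, against 2369, 2358 and 2269 bases in its control, and 2859.6, 2371 and 2839 bases in siMapk8+9, against 2274, 2352 and 2430.4 bases. ATG7 had 3358, 3657 and 4196 bases in siMapk14, against 3238, 3378 and 3467 bases, and 4214, 3166 and 3291 bases in siMapk8+9, against 3261, 3154 and 3253 bases. The tables give counts per gene and not per isoform, so which isoforms these lengths average over was not analysed here.

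Of the listed transcription factor genes, FOXO3 (-0.80 and -0.81) and MITF (-0.82 and -0.81) fell in both knockdowns, and TFE3 rose in siMapk8+9 (0.58). After length correction FOXO3 fell in siMapk14 alone (-0.27), MITF fell in neither, and TFE3 rose in both (0.23 and 0.75). TFEB, the gene of a transcription factor known to drive autophagy and lysosome genes, lies outside the rule for named genes because of its low level and was picked after its values were seen. Its call in siMapk8+9 was lost with total counts as the only scaling (0.88, edgeR adjusted p = 0.0985). It averaged 3.41 ± 0.756 CPM in siMapk8+9, against 1.18 ± 0.191 CPM in its control (1.53 ± 0.32 (SE), edgeR adjusted p = 0.00746; 1.28 ± 0.33, adjusted p = 0.0222 with the length trend removed) and 2.17 ± 0.663 CPM in siMapk14, against 1.60 ± 0.248 CPM in its control (0.42 ± 0.36 (SE), adjusted p = 0.341); the 2 effects differed by -1.12 ± 0.49 (SE) (adjusted p = 0.140).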
